A study of Mus musculus with 2 samples.

Results

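Ednrb, Il13ra2, Lmtk3, Vgll3, Ppfia2 and Vcp were followed through the mouse endometrium as a set of 6 among the 19070 genes in the deposited count matrices. They were picked because their summed counts in stromal cells gave low d/d over f/f ratios, so those stromal ratios describe the choice and are not a finding. The measured question was whether each gene was also low outside the stroma, within each stromal subtype and in cells left out by the quality filter. The tissue was the endometrium of mice on day 3 of pregnancy, profiled cell by cell in 1 library of Erbb3 f/f females and 1 library of Erbb3 d/d females. The assay was Chromium Flex, in which probe pairs are hybridised to the transcripts of fixed cells and the ligated probes are counted. The f/f females carry floxed Erbb3, the receptor of the ErbB family that binds neuregulins, and served as the control, and the labels describe the d/d females as carrying a stromal deletion. The Cre driver, how many mice gave each library and their ages were not given in the sources used here.

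The endometrial stroma is the fibroblast tissue around the uterine glands, which differentiates into decidua after implantation. The members act at different places in a cell. Ednrb is a G protein-coupled receptor of endothelins, and Il13ra2 is a receptor chain that binds interleukin-13 tightly and is best known as a decoy. Lmtk3 is a membrane-anchored kinase of the lemur tail family, Vgll3 is a nuclear cofactor that binds TEAD transcription factors, Ppfia2 is liprin-alpha 2, a scaffold that binds LAR-type phosphatases, and Vcp is the AAA ATPase that extracts ubiquitinated proteins from membranes and complexes.

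In brief, the d/d stroma held 1 UMI of Ednrb against 13.1 expected at the f/f level, and 4 to 6 UMIs of each other member against 15.6 to 23.3 expected. "Nearly absent" therefore described Ednrb, at 7.64% of its f/f level, better than Vcp, at 38.4%. In the classes outside stroma Vcp stood at 99.1% of its f/f level and Lmtk3 at 79.2%, and in cells that no gate took they stood at 92.7 and 57.8%. In the classes outside stroma Ednrb, Il13ra2, Vgll3 and Ppfia2 were so scarce in both libraries that a drop could hardly be measured. Whether their intervals there ended below 0 depended on the setting. In cells that no gate took, they stood at 4.01, 17.9, 17.9 and 28.1% of their f/f levels. Those cells also held stroma markers, so their values are not values of non-stromal cells.

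A UMI is a unique molecular identifier, so that each UMI stands for 1 counted molecule. The f/f library held 5783 barcodes and the d/d library 2125, of which 5503 and 1830 had at least 200 detected genes and at most 10% mitochondrial UMIs. The used cells had medians of 809 and 764.5 UMIs, so that a gene was seen in a cell as 0 or 1 UMI in most cases. No full barcode occurred in both libraries, and 158 barcodes shared their first 16 bases. Cell classes were gated on marker genes, with thresholds set after the data had been seen. The stroma gate took 1102 f/f and 214 d/d cells, and all 14 stroma markers had UMIs in both. Their summed level was 12711 CPM (UMIs scaled to a common total per class) in f/f and 14424 CPM in d/d, beside 238 and 336 CPM for the 14 epithelial markers. Mitochondrial UMIs had a median share of 1.09% in gated f/f stroma and of 2.31% in d/d. Values by mitochondrial share are given with the results. The gates left 2058 f/f and 833 d/d cells without a class. Their stroma markers stood at 3998 and 3639 CPM, beside 649 and 632 CPM in gated epithelium, and their epithelial markers at 1435 and 1506 CPM. They were thus a mix that can include stromal cells, and their ratios are not ratios of non-stromal cells.

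Erbb3 itself was too rare in stroma to check the labels. The f/f stroma held 12 UMIs (11.4 CPM) and the d/d stroma 2 (11.2 CPM), a log2 ratio of -0.03 with a 95% interval from -3.23 to 2.14. In epithelium, where it was more abundant, Erbb3 had 167 and 28 UMIs, or 79.9 and 43.3 CPM, a log2 ratio of -0.88 (-1.52 to -0.30). Where the Erbb3 probes lie relative to the deleted part was not given in the sources used here. All intervals cover counting error only, and with 1 library a group the spread between animals is unknown, so no test was made.

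The members lie on 6 chromosomes and share no locus. By GENCODE M21 on GRCm38 they are protein-coding: Ednrb spans chr14:103814625-103844402 on the minus strand, Il13ra2 spans chrX:147383476-147429192 on the minus strand, Lmtk3 spans chr7:45783738-45804144 on the plus strand. Vgll3 spans chr16:65815257-65866368 on the plus strand, Ppfia2 spans chr10:106470339-106935952 on the plus strand, Vcp spans chr4:42979963-43000507 on the minus strand. RefSeq promoter windows (build GRCm38.p6) were matched for all 6 members by symbol. The 250 bases before the start are shown for both receptors, for Vgll3 and for Vcp. This sets side by side the windows of some members counted mostly in stroma and of Vcp, which was also frequent in epithelium. Each runs 5′ to 3′ on the gene's strand, and capitals mark matches, on either strand, to the TEAD core GGAATG, the steroid receptor half-site AGAACA, the TATA box TATAAA, the CCAAT box CCAAT and the GC box GGGCGG.
Ednrb, chr14:103843702-103843951, minus strand: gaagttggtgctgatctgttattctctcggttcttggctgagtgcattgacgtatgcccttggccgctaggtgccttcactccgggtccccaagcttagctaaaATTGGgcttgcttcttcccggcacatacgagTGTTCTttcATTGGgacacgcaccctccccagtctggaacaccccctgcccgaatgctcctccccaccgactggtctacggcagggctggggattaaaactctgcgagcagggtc
Il13ra2, chrX:147429193-147429442, minus strand: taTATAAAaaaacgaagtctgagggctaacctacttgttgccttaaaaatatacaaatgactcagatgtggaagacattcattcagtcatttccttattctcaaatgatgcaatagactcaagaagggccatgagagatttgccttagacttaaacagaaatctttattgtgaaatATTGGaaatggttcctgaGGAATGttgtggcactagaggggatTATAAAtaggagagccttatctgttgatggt
Vgll3, chr16:65814939-65815188, plus strand: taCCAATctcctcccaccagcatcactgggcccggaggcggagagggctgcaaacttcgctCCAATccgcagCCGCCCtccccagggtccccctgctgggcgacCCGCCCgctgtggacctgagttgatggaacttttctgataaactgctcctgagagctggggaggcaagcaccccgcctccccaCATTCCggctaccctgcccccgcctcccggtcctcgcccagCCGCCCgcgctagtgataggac
Vcp, chr4:43000508-43000757, minus strand: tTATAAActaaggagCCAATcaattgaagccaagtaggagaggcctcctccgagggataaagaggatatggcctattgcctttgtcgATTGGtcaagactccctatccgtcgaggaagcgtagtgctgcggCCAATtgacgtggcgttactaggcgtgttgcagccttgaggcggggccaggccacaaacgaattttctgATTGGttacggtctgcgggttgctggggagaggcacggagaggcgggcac
None of these windows overlapped an exon of GENCODE M21, although the Ednrb window lies inside the longer gene model, in an intron, and none of the capitalised matches overlapped another. The Il13ra2 window had 36% GC, the Vcp window 54.8%, the Ednrb window 56.8% and the Vgll3 window 66.8%, beside a median of 52.4% over all 32851 windows. A TEAD core stood in the Il13ra2 and Vgll3 windows, and 12.6% of all windows hold it. The half-site, found in 16.1% of all windows, stood in the Ednrb window, the TATA box (12.4%) in those of Il13ra2 and Vcp, the CCAAT box (33.8%) in all 4, and the GC box (32.7%) in that of Vgll3. Of the windows not shown, that of Ppfia2 held 2 GC boxes and no other of these matches. Lmtk3 had 1 window with 2 TEAD cores and 1 with 2 CCAAT boxes and 1 GC box. In the Lmtk3 window with the TEAD cores, 169 of the 250 bases lay in an exon of GENCODE M21. A match is a string of letters and not a shown binding site.

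Ednrb was the member with the lowest d/d count in stroma. It had 77 UMIs in 68 f/f stromal cells (73.2 CPM) and 1 UMI in 1 d/d cell (5.59 CPM), and the log2 ratio was -3.71 (-9.03 to -1.19). Epithelium held 6 f/f UMIs (2.87 CPM) and 0 d/d UMIs, too few for a ratio. Over all non-stromal classes there were 13 f/f UMIs and 0 d/d UMIs where 4.11 were expected, a log2 ratio of at most -0.45 with 3 counts as the floor of the pooled d/d count, although the exact interval reached 0.06. With classes from Leiden clusters there were 36 and 0 UMIs outside stroma and the exact interval ended at -1.63. Endothelium, immune cells and smooth muscle with pericytes had 3, 2 and 2 f/f UMIs and none in d/d, and mesothelium had none in either library. The cells without a class held 66 and 1 UMIs, a log2 ratio of -4.64 (-9.97 to -2.11). Ednrb also marks Schwann cells and melanocytes, but Sox10, Cdh19, Foxd3 and Pmel were at 0 in the stroma gate of both libraries. Dct had 1 and 0 UMIs there, and Mitf, which epithelium held as well, had 61 and 13.

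Il13ra2, the second receptor, had the most f/f stromal UMIs of the members, a count that also depends on its probes. Its stromal count was 137 UMIs in 114 f/f cells (130 CPM) and 6 UMIs in 6 d/d cells (33.6 CPM), a log2 ratio of -1.96 (-3.43 to -0.80). Epithelium held 13 f/f UMIs and 0 d/d UMIs against 4.02 expected, which puts the log2 ratio at most at -0.42 by the same floor, and its exact interval reached 0.08. All non-stromal classes together gave 21 and 2 UMIs with its log2 ratio at -1.73 (-4.87 to 0.30). The 2 d/d UMIs lay in smooth muscle and pericytes, where f/f had 3. The non-stromal interval of Il13ra2 ended below 0 with classes from Leiden clusters (-1.96, -4.31 to -0.30) and with all deposited barcodes (-2.81, -5.92 to -0.83). Cells without a class held 59 and 4 UMIs of Il13ra2, at -2.48 (-4.40 to -1.05).

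Lmtk3, the lemur tail kinase, had 117 UMIs in 102 f/f stromal cells (111 CPM) and 4 UMIs in 4 d/d cells (22.4 CPM). Its stromal log2 ratio was -2.31 (-4.21 to -0.92). Epithelium gave 54 and 13 UMIs, 25.8 and 20.1 CPM, with its log2 ratio at -0.36 (-1.36 to 0.53). The stromal ratio was lower than the epithelial ratio, with a log2 ratio of ratios of -1.95 (-4.07 to -0.16), and against all non-stromal classes the value was -1.98 (-4.05 to -0.27). Among the thin classes, endothelium had 7 f/f UMIs and 0 d/d UMIs, and immune cells had 2 and 3. Under a filter of 500 genes a cell the ratio of ratios over epithelium was -1.48 with an interval that includes 0 (-3.64 to 0.38). Cells without a class held 87 and 19 UMIs, 57.8% of the f/f level, at -0.79 (-1.59 to -0.06). Because low stromal ratios chose the members, the stromal side of each ratio of ratios carries that choice. The epithelial side compares unlike mixes of cells. Among the Leiden clusters named epithelium, 1 held 956 f/f and 10 d/d cells and another 345 and 412. How far this mix moved the epithelial ratios of the members was not tested.

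Vgll3, the TEAD cofactor, had 109 UMIs in 92 f/f stromal cells (104 CPM), and its 5 d/d UMIs (28.0 CPM) lay in only 3 cells. The stromal log2 ratio was -1.89 (-3.54 to -0.62). Epithelium held 15 and 3 UMIs, a log2 ratio of -0.63 (-3.06 to 1.19), and all non-stromal classes 26 and 4, a log2 ratio of -1.04 (-3.02 to 0.49). Immune cells had 5 f/f UMIs and 0 d/d UMIs, and smooth muscle with pericytes had 4 and 1. The ratio of ratios over epithelium, -1.26, had an interval from -3.77 to 1.59, so stroma and epithelium could not be told apart for Vgll3 at this depth. The non-stromal interval ended below 0 with classes from Leiden clusters (-1.90, -3.58 to -0.60) and with all deposited barcodes (-1.58, -3.30 to -0.21). Cells without a class held 74 and 5 UMIs of Vgll3, at -2.48 (-4.15 to -1.20).

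Ppfia2, the liprin scaffold, had 124 UMIs in 107 f/f stromal cells (118 CPM) and 6 UMIs in 6 d/d cells (33.6 CPM), a log2 ratio of -1.81 (-3.29 to -0.65). Epithelium gave 12 and 1 UMIs with its log2 ratio at -1.89 (-7.31 to 0.86). All non-stromal classes gave 21 and 1 UMIs with its log2 ratio at -2.73 (-8.10 to -0.09). That interval included 0 with classes from Leiden clusters (41 and 7 UMIs, -0.97, -2.37 to 0.20) and with the stricter gate (-2.21, -7.61 to 0.51). The ratio of ratios over epithelium was 0.08 (-3.15 to 5.72), so stroma and epithelium could not be told apart for Ppfia2 either. Cells without a class held 66 and 7 UMIs, at -1.83 (-3.20 to -0.71).

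Vcp, the ubiquitin-directed ATPase, was the member whose f/f epithelial level came closest to its stromal level. Stroma held 92 UMIs in 79 f/f cells (87.5 CPM) and 6 UMIs in 6 d/d cells (33.6 CPM), a log2 ratio of -1.38 (-2.86 to -0.20). Epithelium held 148 and 49 UMIs, 70.8 and 75.8 CPM, and its log2 ratio was 0.10 (-0.40 to 0.57). All non-stromal classes gave 179 and 56 UMIs, 72.2 and 71.5 CPM, with its log2 ratio at -0.01 (-0.47 to 0.43). The ratio of ratios over epithelium was -1.48 (-3.04 to -0.17), and -1.41 (-3.16 to 0.0024) under the filter of 500 genes. Cells without a class held 157 and 55 UMIs, a log2 ratio of -0.11 (-0.58 to 0.34), and endothelium held 13 and 1, a log2 ratio of -1.97 (-7.38 to 0.76).

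**Figure D1:**
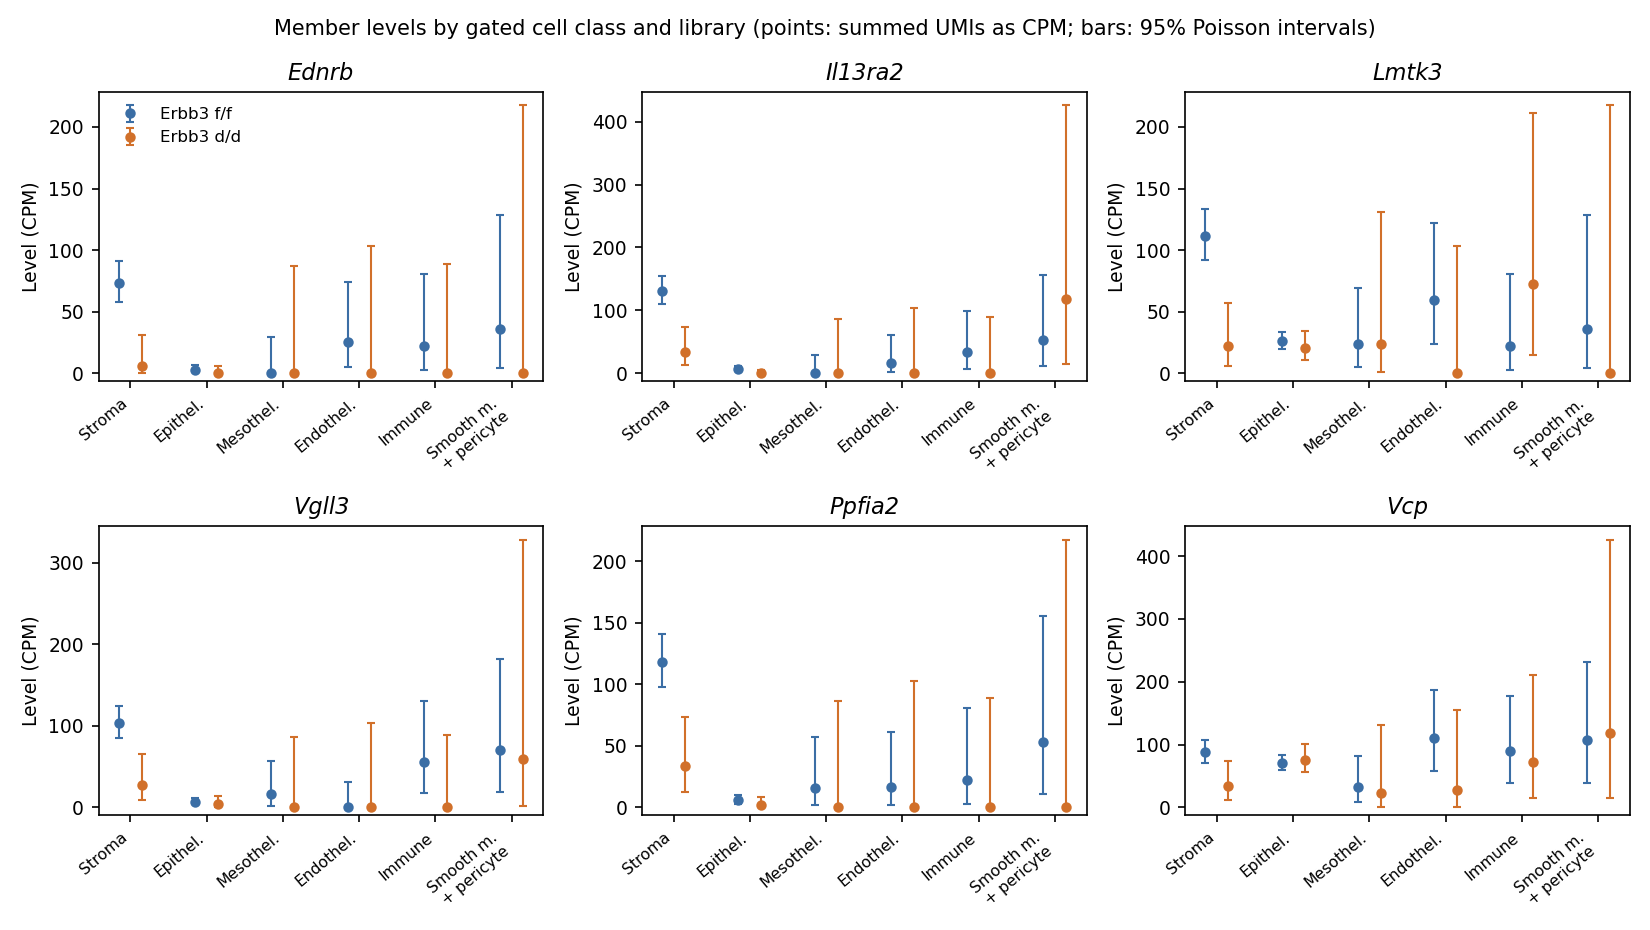
Level of each member in CPM by gated cell class, in the f/f library (blue) and the d/d library (orange), with 95% Poisson intervals; each panel has its own vertical axis from 0. In stroma the f/f points lie between 73.2 and 130 CPM and the d/d points between 5.59 and 33.6 CPM, while Vcp stands at 70.8 and 75.8 CPM in epithelium.

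**Figure D2:**
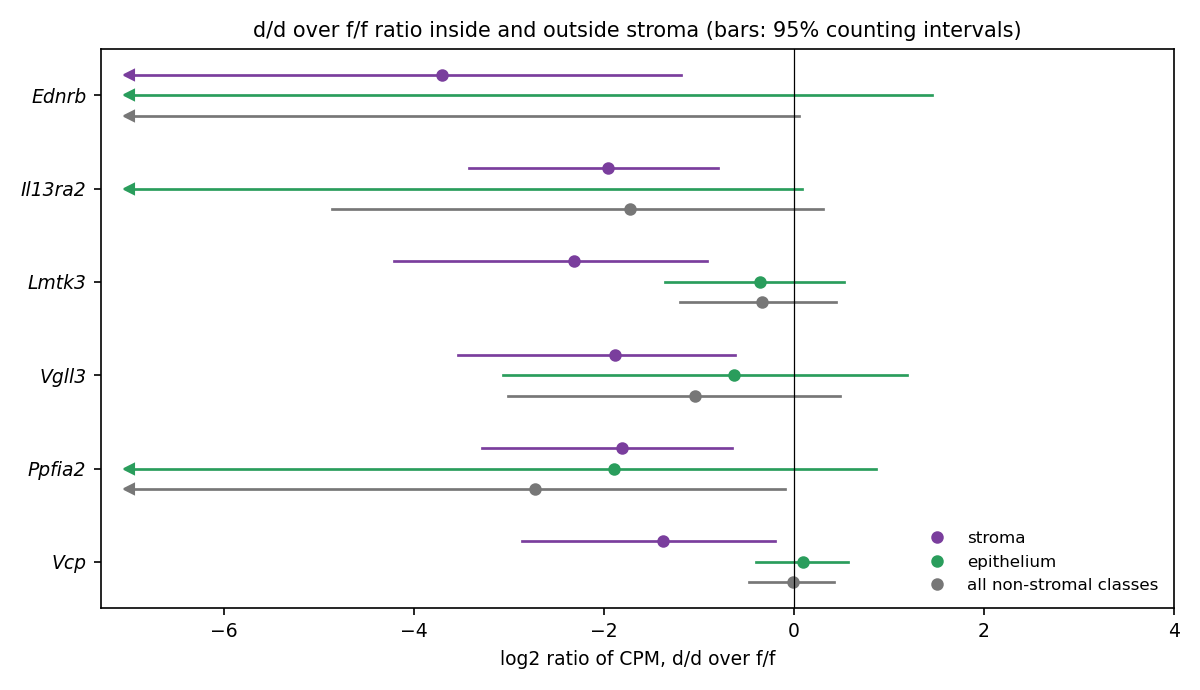
Log2 of the d/d CPM over the f/f CPM for each member in stroma, epithelium and all non-stromal classes, with 95% counting intervals; an arrow marks an interval that goes on beyond the axis, and a line with no point has 0 d/d UMIs. The stromal intervals all end below 0 because the members were chosen on that ratio, and the non-stromal points of Lmtk3 and Vcp lie at -0.34 and -0.01.

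Read against all genes, these stromal ratios mostly restate the choice. Among 3753 genes with at least 100 UMIs in stroma, 3.33% had a log2 ratio of -1 or lower and 0.266% a ratio of -2 or lower. Il13ra2, Lmtk3, Vgll3 and Ppfia2 passed that UMI minimum, all 4 were at or below -1 and Lmtk3 was at or below -2. Ednrb and Vcp did not pass it. All 6 members passed a minimum of 50 UMIs, at which 5.62% of 6321 genes were at or below -1, as the 6 were. With at least 20 UMIs the share was 8.34% of 9097 genes, and the 6 members ranked from 1 (Ednrb) to 388 (Vcp). In epithelium 4.49% of 6479 genes with at least 100 UMIs were at or below -1. Vcp was the only member to pass there, and it was not among them. With 20 UMIs the share was 7.37%, and neither Vcp nor Lmtk3, the members tested, was among them. Over all non-stromal classes the share was 3.42%, and again Vcp alone was tested and was not at or below -1. With 20 UMIs as the minimum, 6.01% of 10973 genes were at or below -1 outside stroma, as were 3 of the 5 members tested, namely Il13ra2, Vgll3 and Ppfia2. Each of these 3 reached the minimum by its f/f UMIs alone, with 21 and 2, 26 and 4, and 21 and 1 UMIs. Only the interval of Ppfia2 ended below 0. Whether these UMIs came from non-stromal cells was not tested, so the count is no measure of a drop outside stroma.

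The genes just outside the list had similar stromal values. Among genes with at least 100 UMIs, the lowest stromal log2 ratios of other genes were -2.81 for Lrp2, an endocytic receptor, -2.39 for both Cwc22 and Col4a6, -2.30 for both Ccnd2 and Gpc6, and -2.22 for Ctla2a. Lrp2, Cwc22 and Ctla2a were also low in epithelium, at -3.16, -2.78 and -1.97. In f/f, Lrp2 had 165 UMIs in stroma and 2568 in epithelium, and whether its stromal UMIs came from stromal cells was not tested. Col4a6, a basement membrane collagen, had an epithelial log2 ratio of -0.06, Gpc6 -0.52 and Ccnd2, a D-type cyclin, 1.32. Low stromal values thus occurred both with and without low epithelial values among the neighbours of the list. For the members this could not be said, since by the main gate none had an epithelial interval that ended below 0.

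How far a member could be measured outside stroma depended on its f/f level there. The f/f epithelial level was 3.92% of the stromal level for Ednrb, 4.78% for Il13ra2, 4.87% for Ppfia2 and 6.93% for Vgll3. The 14 stroma markers, which the gate used, gave 4.06 to 10.4% in the same comparison, and 4 stromal genes not used by the gate, Pth1r, Scube1, Col6a4 and Adam12, gave 3.21 to 5.21%. Whether the epithelial UMIs of these 4 members came from epithelial cells or from free stromal RNA was not tested. Lmtk3, at 23.2%, and Vcp, at 81.0%, lay above both ranges, and these are the members whose epithelial ratios rest on 13 and 49 d/d UMIs.

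**Figure D3:**
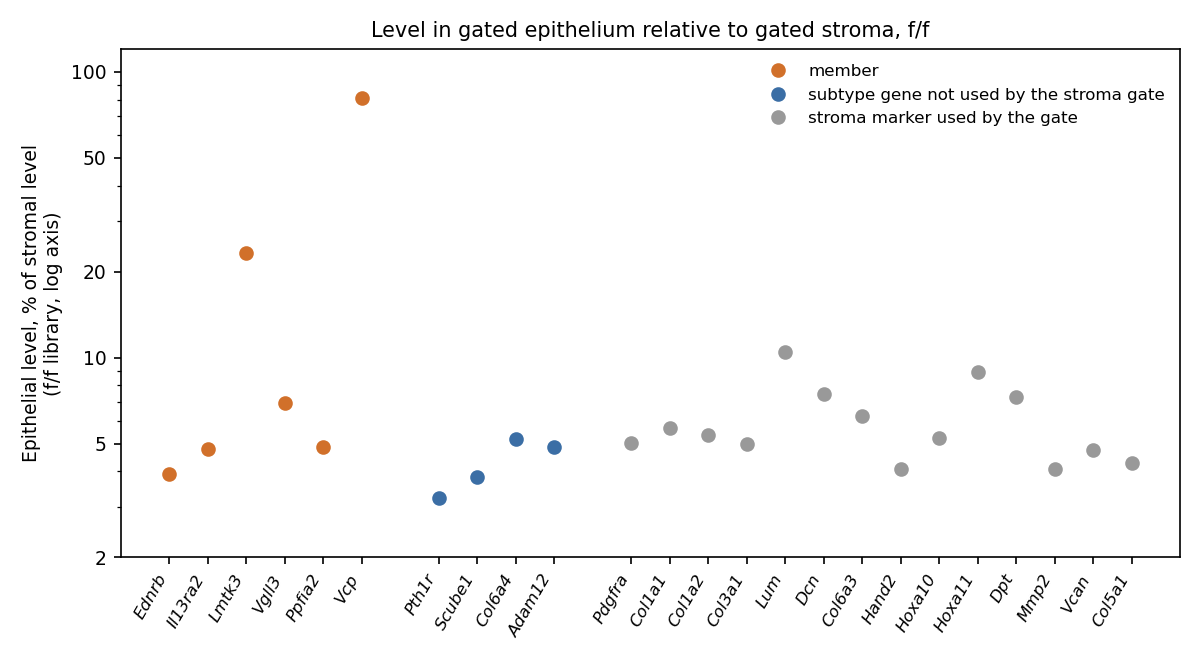
Level in gated epithelium as a percentage of the level in gated stroma of the f/f library, on a log axis, for the members (orange), for subtype genes that the stroma gate did not use (blue) and for the markers of the gate (grey). Ednrb, Il13ra2, Ppfia2 and Vgll3 lie between 3.92 and 6.93%, among the stromal genes, while Lmtk3 (23.2%) and Vcp (81.0%) lie above them.

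The share of cells with a UMI rests on the same UMIs and is given as a description. With every cell thinned to 500 UMIs, the stromal shares in f/f and d/d were 3.57 and 0.467% for Ednrb, 5.95 and 1.40% for Il13ra2, and 5.12 and 1.40% for both Lmtk3 and Vgll3. They were 6.13 and 2.80% for Ppfia2, and 4.21 and 1.87% for Vcp. Thinning left out 9 f/f stromal cells and 0 d/d cells, and the unthinned shares ran from 6.17 to 10.3% in f/f and from 0.467 to 2.80% in d/d. In epithelium, at median depths of 911 and 889 UMIs against 744.5 and 688 in stroma, the thinned f/f shares were 0.208 to 0.312% for Ednrb, Il13ra2, Vgll3 and Ppfia2. The d/d stromal share of Ednrb, 1 of 214 cells, had an interval (0.0118 to 2.58%) that includes those epithelial shares. Vcp had 3.22 and 3.88% in epithelium, and the interval of its d/d stromal share (0.512 to 4.72%) includes both.

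Stromal subtypes were compared because their mix differed between the libraries. Cells with more UMIs of Pth1r and Scube1 than of Col6a4 and Adam12 were 38.9% of f/f stroma (429 cells) and 17.3% of d/d stroma (37 cells), and cells with the reverse were 30.8% (339) and 65.0% (139). With Adam12 alone in place of Col6a4 and Adam12 the shares were 48.4 and 34.6%, and 15.9 and 24.3%, so the shift was smaller without Col6a4. The summed level of Col6a4 and Adam12 also differed outside stroma, at 56.0 and 209 CPM in epithelium and 295 and 698 CPM in endothelium. In f/f the members were found in both subtypes. Vgll3 stood at 129 CPM in Pth1r/Scube1 cells and 75.5 CPM in Col6a4/Adam12 cells, a log2 difference of -0.78 (-1.51 to -0.08), and it was the only member whose interval did not include 0. Ppfia2 had the largest difference the other way, with 97.6 and 142 CPM and a log2 difference of 0.54 (-0.08 to 1.17).

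Within Col6a4/Adam12 stroma, which held most of the d/d cells, the values come largely from the UMIs that chose the members and restate that choice. Ednrb had 32 f/f UMIs and 0 d/d UMIs against 11.4 expected, a log2 ratio of at most -1.93. Lmtk3 had 36 and 2 UMIs, a log2 ratio of -2.68 (-5.78 to -0.73), and Ppfia2 49 and 4 UMIs, a log2 ratio of -2.13 (-4.06 to -0.68). Il13ra2 had 47 and 6 UMIs, a log2 ratio of -1.48 (-3.00 to -0.25). For Vcp (27 and 3 UMIs, -1.68, -4.05 to 0.02) and Vgll3 (26 and 4 UMIs, -1.21, -3.19 to 0.31) the intervals included 0. With Adam12 as the only marker of this subtype, a gate added after the data had been seen, Vgll3 stood at 0.31 (-1.79 to 2.07), Lmtk3 at -1.23 (-4.39 to 0.86) and Ppfia2 at -1.59 (-3.95 to 0.09), and the bound of Ednrb moved to at most -0.55. With at least 2 subtype UMIs a cell, Il13ra2 stood at -1.02 (-2.59 to 0.28). By the main gate the Pth1r/Scube1 cells of d/d were too few to read, since only 2.18 to 3.91 UMIs a member were expected there, and 0 to 2 were counted. With Adam12 alone, a gate that ignores Col6a4, this group had 74 d/d cells and 4.01 to 7.41 expected UMIs a member. There Lmtk3 stood at -2.66 (-7.98 to -0.13), Vgll3 at -2.89 (-8.21 to -0.37) and Vcp, from 58 and 0 UMIs, at most at -0.95. The intervals of Ednrb, Il13ra2 and Ppfia2 included 0 there. When the f/f levels were weighted to the d/d mix of subtypes, the stromal log2 ratios were -3.89 for Ednrb, -1.99 for Il13ra2, -2.27 for Lmtk3, -1.65 for Vgll3, -1.97 for Ppfia2 and -1.27 for Vcp.

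**Figure D4:**
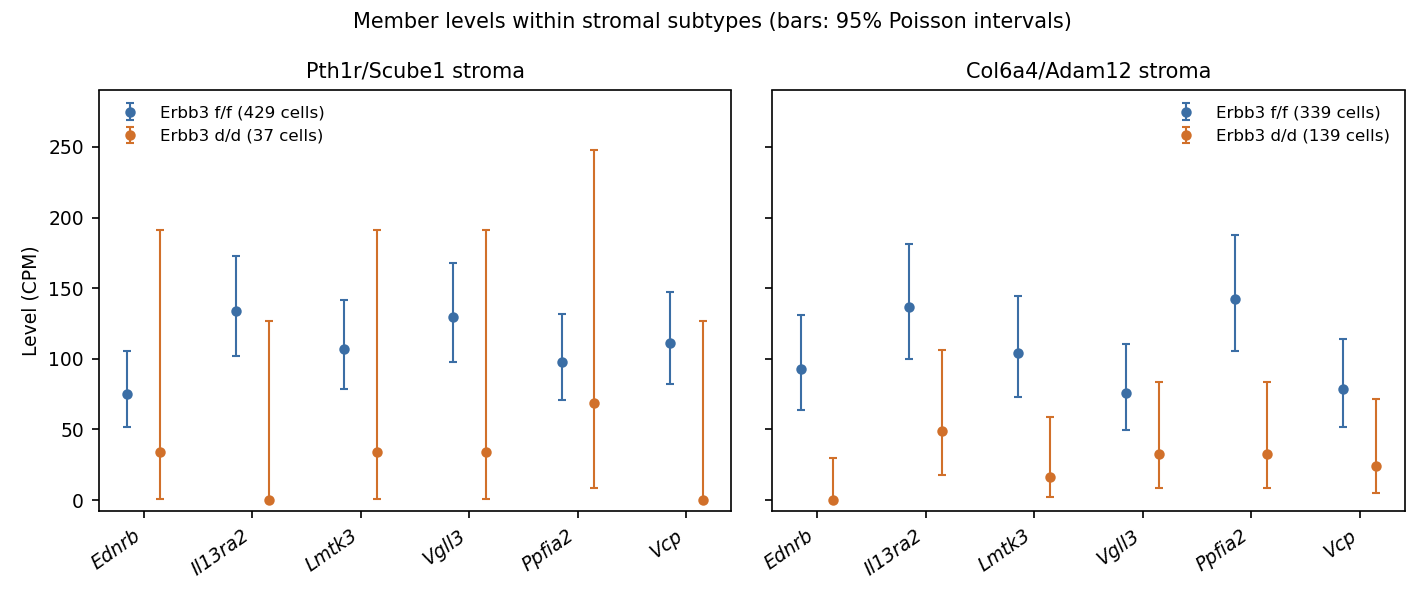
Level of each member in CPM within the stromal subtypes of the f/f library (blue) and the d/d library (orange), with 95% Poisson intervals and the number of cells in the key. In Col6a4/Adam12 stroma the f/f points lie between 75.5 and 142 CPM and the d/d points between 0 and 48.8 CPM, and the 37 d/d cells of Pth1r/Scube1 stroma leave wide intervals.

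The stromal cells were also divided by mitochondrial share, an alternative added after the data had been seen. In the used stromal cells all 6 d/d UMIs of Vcp and all 6 of Ppfia2 lay in the cells of low share. Stromal cells with at most 2% mitochondrial UMIs (710 f/f and 102 d/d) held 60 and 6 UMIs of Vcp, 101 and 79.7 CPM, a log2 ratio of -0.35 (-1.85 to 0.86). Those with 2 to 10% (392 and 112) held 32 and 0 UMIs of Vcp, where 7.19 were expected in d/d, a log2 ratio of at most -1.26. Vcp in epithelium moved the same way, from 0.36 at up to 2% to -1.14 (-2.68 to 0.12) at 2 to 10%. Ppfia2 had 73 and 6 UMIs, a log2 ratio of -0.63 (-2.12 to 0.56), in the lower bin and 51 and 0 UMIs, at most -1.93, in the upper. The receptors had values below 0 in both bins, although the upper interval of Il13ra2 included 0. Ednrb had 46 and 0 UMIs (at most -0.96) and then 31 and 1 (-2.80, -8.15 to -0.22). Il13ra2 had 80 and 0 (at most -1.76) and then 57 and 6 (-1.09, -2.60 to 0.12). Lmtk3 stood at -3.31 (-8.63 to -0.79) and -1.55 (-3.89 to 0.11), and Vgll3 at -1.42 (-3.73 to 0.20) and -2.37 (-5.46 to -0.43). The intervals of the 2 bins overlapped for every member, and the difference between them was not tested.

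Barcodes above 10% mitochondrial UMIs, left out of every value so far, held 19.1% of the f/f UMIs and 40.3% of the d/d UMIs. Passed through the same gate, 33 f/f and 41 d/d of them were stromal. Ednrb had 10 and 1 UMIs there, 128 and 17.3 CPM, a log2 ratio of -2.89 (-8.33 to -0.08). Vcp had 5 UMIs in each, 64.1 and 86.3 CPM, so its ratio turned to 0.43 (-1.69 to 2.55). Over all classes of these barcodes Ednrb had 22 f/f UMIs and 9 d/d UMIs, a log2 ratio of -1.12 (-2.42 to 0.06), beside 156 and 2 UMIs in all used cells. The 9 d/d UMIs came from 6 barcodes, with 1 UMI in the stroma gate, 3 in immune cells and 5 in barcodes without a class. Most of the Ednrb counted in the d/d library therefore lay in barcodes that the filter removed.

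**Figure D5:**
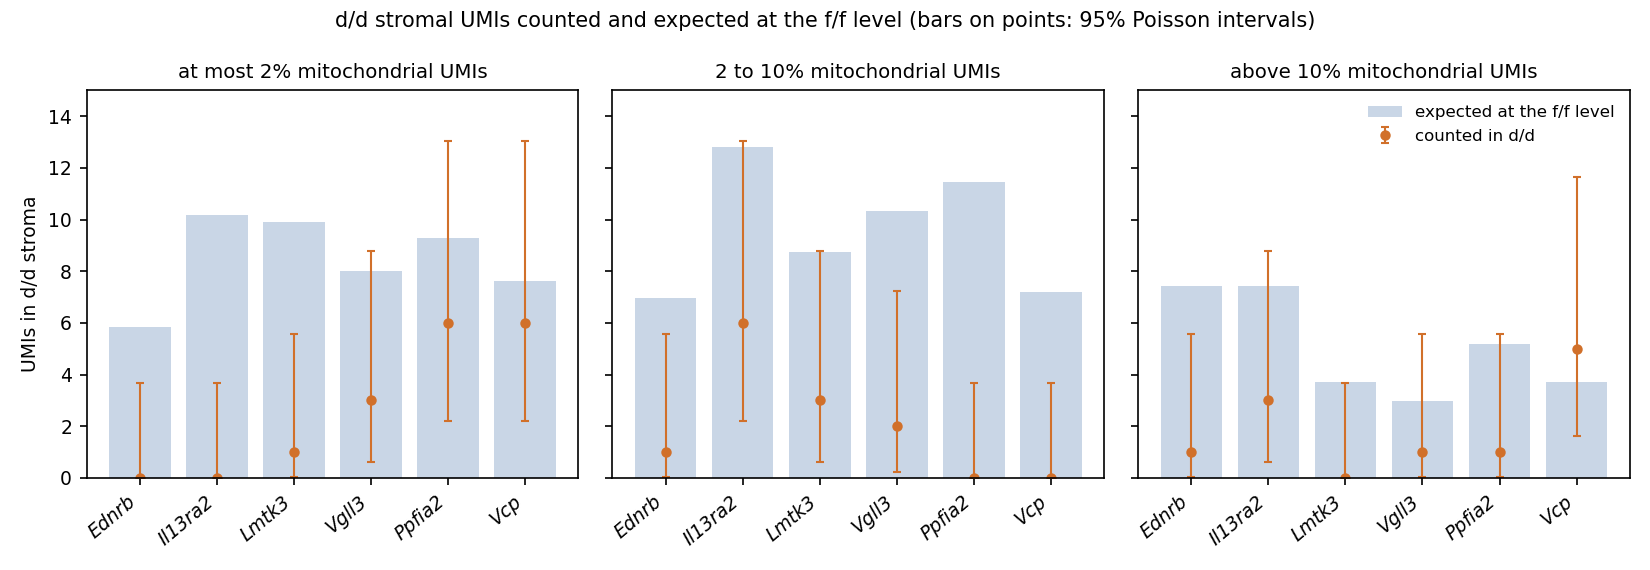
UMIs of each member in d/d stroma (orange points, 95% Poisson intervals) beside the number expected at the f/f level of the same bin (bars), for stromal cells with at most 2%, 2 to 10% and above 10% mitochondrial UMIs. For Vcp 6 UMIs stand beside 7.63 expected in the lowest bin, 0 beside 7.19 in the middle bin and 5 beside 3.71 in the highest.

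The molecular partners of the members did not share their low stromal ratios as a group. Of the family lists, 50 genes other than the members had at least 50 UMIs in stroma, and 3 of them were at or below -1 and 0 at or above 1, beside the 5.62% of all genes with that many UMIs given above. The median log2 ratio was 0.21 for 5 genes of the interleukin-13 and interleukin-4 pathway, -0.14 for 13 Vestigial-like, TEAD and Hippo genes, 0.16 for 6 liprins and LAR phosphatases and 0.04 for 24 Vcp cofactors and genes of protein degradation at the endoplasmic reticulum, beside -0.09 for all genes with that many UMIs. These medians are descriptions of the pair of libraries.

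For the receptors, the endothelin-converting enzymes Ece1 and Ece2 had stromal log2 ratios of 0.44 (-0.60 to 1.37) and -0.68 (-1.38 to -0.04). Of the kinases and factors downstream of interleukin-13 and interleukin-4, Jak1 stood in stroma at -0.28 (-1.06 to 0.42), Stat6, the factor activated by both cytokines, at 0.21 (-0.42 to 0.79), and Stat3 at 0.61 (-0.12 to 1.28). In epithelium Jak2 stood at -0.57 (-0.77 to -0.37), Stat6 at -0.53 (-0.90 to -0.17) and Stat3 at -0.71 (-1.05 to -0.38). Among the partners of Vgll3, Tead3 had 180 and 11 UMIs with its log2 ratio at -1.48 (-2.50 to -0.60), and its epithelial ratio was -0.96 (-1.43 to -0.53). Tead1 and Yap1, the TEAD factor and coactivator of the same pathway, stood at -0.14 (-0.77 to 0.44) and -0.11 (-0.59 to 0.34), and Vgll4 at -0.52 (-1.19 to 0.10).

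The closest relative of Ppfia2, Ppfia1, had 353 and 55 stromal UMIs with its log2 ratio at -0.12 (-0.56 to 0.29). Phldb1, which is found with liprins at the cell cortex, had the highest value of that list, 0.94 (0.60 to 1.28). Among the partners of Vcp, Nploc4 and Ufd1, the subunits of its substrate-binding dimer, stood apart: Nploc4 had 52 and 2 UMIs with its log2 ratio at -2.14 (-5.23 to -0.22), and Ufd1 had 269 and 61 UMIs and a ratio of 0.42 (-0.01 to 0.82). Nsfl1c, the p47 cofactor, stood at 0.45 (0.17 to 0.72), the ubiquitin ligase Syvn1 at 0.53 (0.15 to 0.89) and Ubxn6 at -1.09 (-3.02 to 0.36). No relative of Lmtk3 reached 50 UMIs in stroma.

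The members were compared across the 12 profiles of 6 classes in 2 libraries. The stromal profiles, on which the members were chosen, were included, so likeness among members partly restates that choice. Among Ednrb, Il13ra2, Vgll3 and Ppfia2, Pearson's r of log2(CPM + 10) ran from 0.62 (Ednrb and Vgll3) to 0.88 (Ednrb and Ppfia2, and Il13ra2 and Vgll3). Lmtk3 had 0.60 with Ednrb and 0.57 with Ppfia2, and 0.09 with Vgll3 and 0.10 with Il13ra2, while Vcp ran from 0.27 (Ppfia2 and Lmtk3) to 0.60 (Il13ra2). The highest values of Lmtk3 and Vcp thus lay close to the 0.62 of Ednrb and Vgll3. Among 8463 genes, those most like Ednrb were Ppfia2 (0.88), Adamts19 (0.86) and Sdk2 (0.86), and those most like Il13ra2 were Lama2 (0.92), Gpc6 (0.90) and Shc2 (0.90). Those most like Vgll3 were Efemp2 (0.88), Il13ra2 (0.88) and Ift57 (0.86), and those most like Ppfia2 were Prelid3a (0.96), Egflam (0.96) and Nog (0.93). Lmtk3 was most like Hmgxb3 (0.93), Wdr46 (0.91) and Hmgb1 (0.89), and Vcp like Mfsd14a (0.94), Mcm2 (0.89) and Acly (0.87). The profiles share libraries and depth, and 1 UMI was worth 59.0 CPM in the thinnest of them, so these are descriptions with no test.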

How the data were processed

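The authors deposited UMI counts per gene and cell barcode for both libraries, whole numbers that were not normalised and that, per the file headers, came from Cell Ranger 9.0.0. The submitters' processing notes name the builds mm10 and GRCm39 with no role for either. The members and the lists of related genes were chosen with earlier results of these data known.

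Barcodes with at least 200 genes and at most 10% mitochondrial UMIs were used. A class needed the leading share of marker UMIs, scaled by its 99th percentile and 2 times the next, with at least 2 marker genes and 3 UMIs (stroma, endothelium, smooth muscle) or 2 UMIs (other classes). The markers were taken as listed, and these thresholds were set after seeing the data. Stromal subtypes were assigned by the larger UMI sum of Pth1r with Scube1 or of Col6a4 with Adam12. Scrublet (scanpy 1.11.5) called 1 f/f and 5 d/d doublets, too few to trust, so doublets were kept, and leaving out the 5% of highest scores was an alternative.

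UMIs were summed by class and library and scaled to CPM, with exact 95% Poisson intervals, conditional binomial intervals for ratios, conditional odds ratios for ratios of ratios, and Clopper-Pearson intervals for shares (scipy 1.17.1). A count of 0 has a floor of 3 counts. The ratio functions were tested on simulated data. With 1 library a group no p-value was computed. Named are the members, Erbb3, family genes with at least 50 stromal UMIs, the 6 other genes of lowest stromal ratio among those with at least 100 UMIs, and per member the 3 most correlated genes. Alternatives were TMM scaling (edgeR 4.0.16), Leiden clusters, other filters, gates and thinning depths. Gene positions came from GENCODE M21 on GRCm38. No protein sequence was used here, and some markers of the Schwann and melanocyte list are not reported here.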

Additional observations from a re-analysis of the deposited data

Results flagged for a closer look

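Vcp had a log2 ratio (d/d over f/f) of 0.0977 (-0.40 to 0.57) in epithelium and -1.38 in stroma, so it was low in stroma and near its f/f level in epithelium. The ratio of ratios was -1.48 (-3.04 to -0.17), and -1.41 (-3.16 to 0.0024) under the filter of 500 genes. These intervals cover counting error only, and the stromal side carries the choice of the members. The mix of epithelial cells differed between the libraries, and its effect on these values was not tested. No test was made, since each genotype has 1 library.

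Vcp was also found in barcodes above 10% mitochondrial UMIs, which the cell filter left out: 94 UMIs in d/d (81.4 CPM) and 82 in f/f (63.0 CPM), a log2 ratio of 0.37.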

How the results depend on the processing

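No paired analysis was possible because each group has 1 library, and for the same reason no replicate could be left out. All stromal ratios of the members kept their sign under TMM scaling, a filter of 500 genes, a stricter and a wider gate, all deposited barcodes, and removal of the 50 most abundant genes or of the highest doublet scores. The stromal ratio of Vcp with all deposited barcodes was -0.88, with an interval that includes 0 (-1.93 to 0.02). With classes from Leiden clusters the stromal ratio of Lmtk3 was -4.22. Among settings added after seeing the data, barcodes above 10% mitochondrial UMIs alone turned the stromal ratio of Vcp to 0.43, put that of Lmtk3, from 5 and 0 UMIs, at most at -0.31 by the floor (exact upper limit 0.56) and the non-stromal ratio of Ednrb, from 2 and 3 UMIs, at 0.84. Cells with at most 2% mitochondrial UMIs put the stromal ratio of Ednrb at most at -0.96 and that of Ppfia2 at -0.63. Cells with 2 to 10% gave epithelial ratios of -1.84 for Lmtk3 and -1.14 for Vcp. Adam12 alone as subtype marker moved the Col6a4/Adam12 ratios of Ednrb to at most -0.55 and of Vgll3 to 0.31. The cause of each was not tested. Thinning to 1000 UMIs kept 285 f/f and 38 d/d stromal cells. The f/f shares with a UMI were then 7.37% (Ednrb), 15.4% (Il13ra2), 10.2% (Lmtk3), 8.42% (Vgll3), 14.0% (Ppfia2) and 10.9% (Vcp), and the d/d shares that moved were 2.63% (Ednrb), 10.5% (Il13ra2), 0% (Vgll3) and 7.89% (Vcp). With a minimum of 20 UMIs, which tests more genes, the genes at or below -1 numbered 759 in stroma, 753 in epithelium and 659 outside stroma, in place of 125, 291 and 249, and those at or below -2 numbered 140, 134 and 107, in place of 10, 44 and 33. Where both libraries were at or near 0, as for Ednrb in epithelium, a setting gave no ratio. Depth limits every d/d stromal value, since 1 UMI there is worth 5.59 CPM.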
